A study of Homo sapiens with 16 samples.

Results

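The 39 ribosome biogenesis genes described here encode proteins that make ribosomes. They were set as a list of gene symbols, and all 39 were found among the 27311 genes measured and among the 14398 genes tested. Their RNA levels were measured in 4 human immune cancer lines with and without an immune ligand, to see how the lines differ untreated and how each responds. There were 8 groups of 2 libraries, 16 libraries in all, each prepared with SmartSeq2, an oligo-dT primed method that reads whole transcripts. The THP-1 line (monocytic leukaemia) carried dCas9-KRAB, a cutting-dead Cas9 fused to a repressor domain, in all 4 of its libraries, and was given lipopolysaccharide (LPS) at 1 µg/ml or left untreated. The U937 line (monocytic), labelled WT, received LPS at 200 ng/ml or nothing. The Jurkat line (T cell leukaemia), labelled WT, received anti-CD3 at 5 µg/ml with PMA, a phorbol ester, at 100 ng/ml, or nothing. The BJAB line (B cell lymphoma), labelled WT, received anti-IgM at 10 µg/ml with anti-CD40 at 4 µg/ml, or nothing. Every stimulation lasted 4 hours. Each line stands for its lineage as a single tumour line, and no label says whether the 2 libraries of a group came from separate cultures, so that p-values measure only the spread between these libraries.

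Ribosomes are assembled in the nucleolus. RNA polymerase I transcribes a long precursor of ribosomal RNA, which is then modified under the guidance of small nucleolar RNAs, cut, folded and joined with ribosomal proteins. The small and the large subunit mature along separate paths, each served by many assembly factors that are not part of the finished subunit. Many of these genes are known targets of the transcription factor MYC, and their output is linked to cell growth. By role the list holds 5 snoRNP proteins, which bind small nucleolar RNAs, 5 nucleolar RNA-binding and chaperone proteins, 3 RNA polymerase I subunits, 15 small-subunit assembly factors and 11 large-subunit assembly factors.

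Values are in TPM, transcripts per 1000000, which is corrected for transcript length and is a share of the library; RNA per cell was not measured, and fewer cells of a type and less RNA per cell cannot be told apart. The libraries held 4125221 to 8431295 recovered reads. A member had 59 to 16731 reads in a library, with a median of 965.5, and 36 of the 39 had at least 100 in every library. SmartSeq2 does not mark the strand, and 14 of the 39 have an exon over an exon of another gene on the opposite strand in GENCODE v29. These are EBNA1BP2 (with CFAP57), GNL3 (GLT8D1), HEATR1 (LGALS8), MRTO4 (EMC1), NOB1 (AC092115.3), NOP14 (NOP14-AS1), NOP16 (HIGD2A), PES1 (TCN2), PNO1 (AC017083.3), POLR1C (XPO5 and others), RRP12 (AL355490.2), TSR1 (SRR), WDR12 (CARF) and WDR74 (AP001160.1), whose reads cannot be told apart there. Each line expressed markers of its own lineage. The 13 monocytic markers summed to 7600 to 8572 TPM in THP-1 and 4948 to 5595 TPM in U937. In U937, 10 of the 13 were over 1 TPM in both untreated libraries and 9 in both LPS libraries. The 10 T lineage markers summed to 5269 to 6082 TPM in Jurkat, and the 10 B lineage markers to 6774 to 7258 TPM in untreated BJAB. Differences were tested with limma on log2(TPM + 1) over all 16 libraries, with adjustment over all tested genes and a threshold of 0.05. The libraries that stood apart from their partners were 2: the first LPS library of U937 and the first stimulated library of BJAB. Over the 39 genes, the SD of the log2 difference between the libraries of a pair was 1.02 in LPS-treated U937 and 1.21 in stimulated BJAB, against 0.12 to 0.28 in the 6 other groups. This SD does not tell which library of a pair is unusual. The first ones lay farther from the untreated libraries, with a median log2 change over all tested genes of −0.46 against 0.00 in U937 and −0.21 against −0.04 in BJAB. Which library is nearer to the response of the line was not tested. Results that rest on these libraries are given with and without them; without them, the remaining LPS library of U937 and the remaining stimulated library of BJAB were assumed to vary like the other groups.

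In the untreated lines, the 39 genes together were highest in U937 and lowest in THP-1. Their TPM summed to 10215 and 10695 in untreated U937, 7839 and 7848 in untreated THP-1, 8417 and 8240 in untreated Jurkat, and 8257 and 8085 in untreated BJAB. The U937 libraries were above all others, while Jurkat and BJAB overlapped. NPM1, nucleophosmin, was the most abundant member at 2121 TPM averaged over the untreated lines, followed by NCL, nucleolin, at 1084 TPM. The median member averaged 129 TPM, and the lowest, POLR1A, averaged 10.5 TPM. Untreated U937 had the highest mean for 27 of the 39 genes, and for 25 of these both U937 libraries lay above every library of the other lines. Untreated THP-1 had the lowest mean for 22 genes, and for 15 both THP-1 libraries lay below every other. BJAB was highest for 9 and lowest for 7, and Jurkat was highest for 1 and lowest for 9. The share of all tested genes with such an order was not counted, so that these counts have no background beside them.

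**Figure D1:**
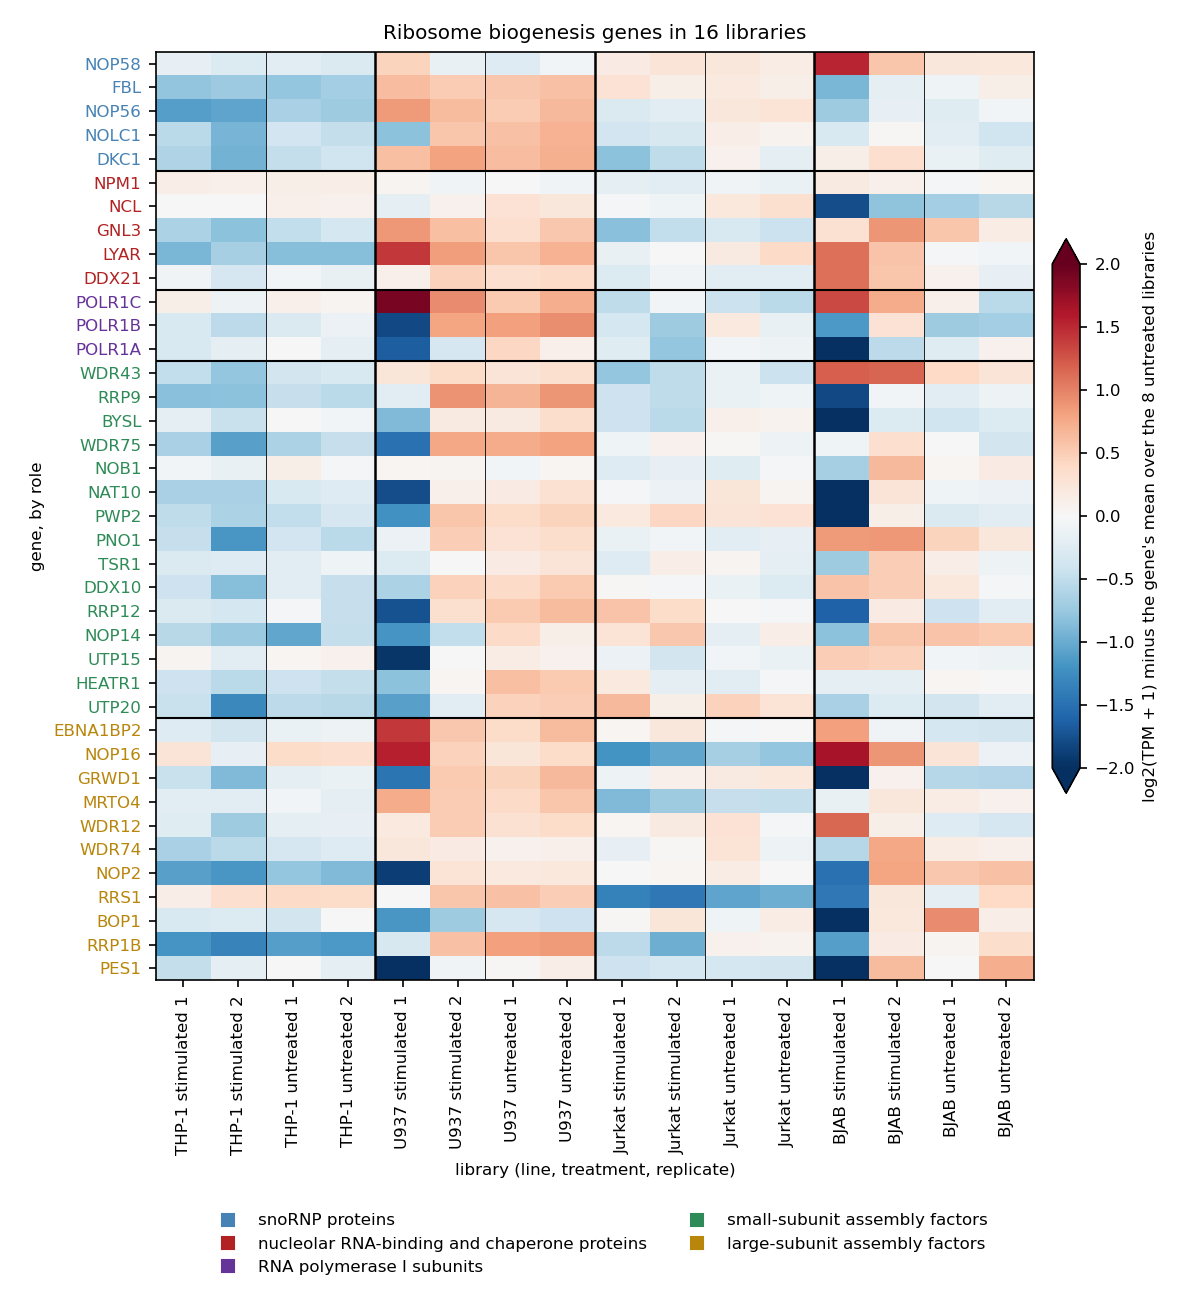
Level of each of the 39 genes (rows, grouped by role) in each of the 16 libraries (columns, stimulated left of untreated in each line), as log2(TPM + 1) minus the gene's mean over the 8 untreated libraries; the colour scale ends at −2 and 2. The untreated U937 columns are mostly red and the THP-1 columns mostly blue, and the first LPS library of U937 and the first stimulated library of BJAB differ from their partners in most rows.

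The size of the difference between lines varied from gene to gene. For 8 genes the highest untreated line was less than 1.5 times the lowest. They include UTP15, a small-subunit factor, at 1.16 times, NPM1 at 1.18 times, and NOB1, the endonuclease that makes the final cut of 18S rRNA, at 1.18 times. For 17 genes the ratio was over 2. RRP1B, a nucleolar protein that binds large-subunit precursors, had the widest ratio at 3.97 times, followed by POLR1B at 3.07 and RRS1, which helps load the 5S particle, at 2.98.

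Each untreated line was then tested against the mean of the other 3. These 4 comparisons use the same 8 libraries, so that a high value in U937 lowers the others and the comparisons are not independent. THP-1 alone carried dCas9-KRAB, so that line and dCas9-KRAB cannot be told apart in its comparison. In U937, 10 of the 39 genes were higher and 0 lower, while 15.1% of all tested genes were higher and 20.8% lower. In THP-1, 0 were higher and 8 lower, against 17.6% and 17.3% of all genes. In Jurkat, 0 were higher and 3 lower, against 22.0% and 16%. In BJAB, 1 was higher and 1 lower, against 14.5% and 25.0%; with quantile normalization 3 were higher and 1 lower in BJAB, and the split over all genes moved from 2085 higher and 3596 lower to 2932 and 3267. The median difference of the 39 genes was 0.55 in U937, −0.33 in THP-1, −0.04 in Jurkat and −0.05 in BJAB on the log2 scale, beside −0.11, −0.08, 0.14 and −0.15 over all tested genes. In U937, 35 of 39 had a positive difference, and in THP-1, 32 had a negative one.

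**Figure D2:**
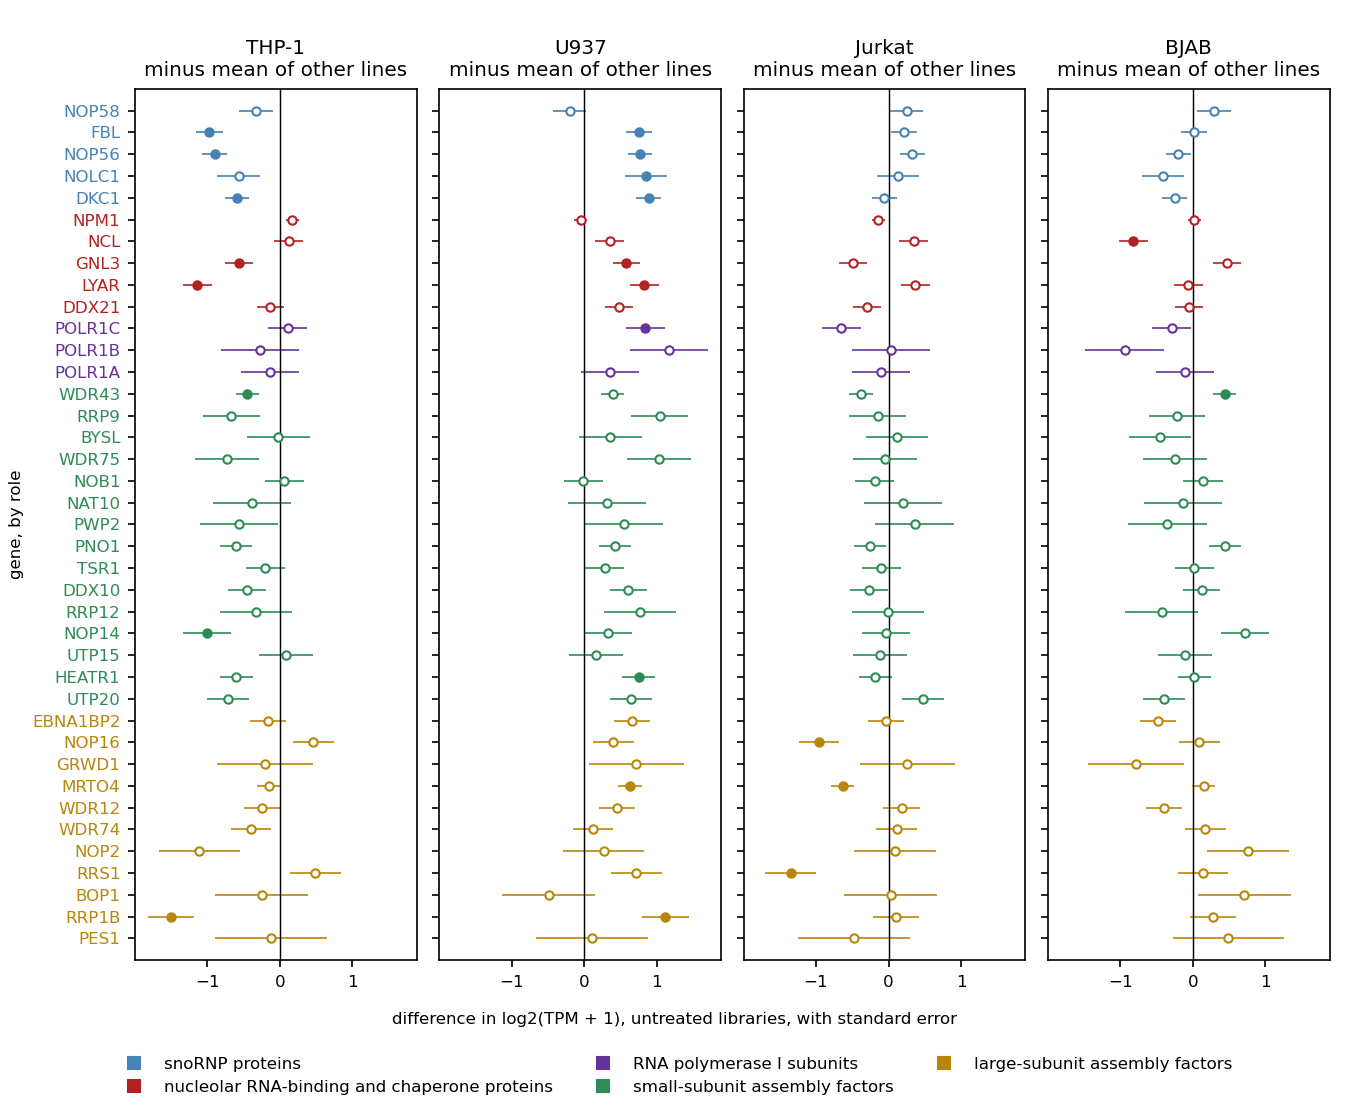
Difference of each untreated line from the mean of the other 3 lines in log2(TPM + 1) for the 39 genes, with its standard error from limma; filled points passed the threshold of 0.05 over all tested genes. Filled points are to the right of 0 in U937 (10 genes), to the left in THP-1 (8) and Jurkat (3), and 1 on each side in BJAB.

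Among the snoRNP proteins, 4 of 5 were higher in U937 and 3 of 5 lower in THP-1. FBL, fibrillarin, the methyltransferase of box C/D particles, had 465 and 483 TPM in U937, against 189 and 200 in THP-1, 367 and 348 in Jurkat, and 301 and 347 in BJAB. U937 lay above and THP-1 below every other library. The difference was 0.75 in U937 (SE 0.18, limma adjusted p = 0.00745) and −0.97 in THP-1 (SE 0.18, limma adjusted p = 0.00144). NOP56, a core protein of the same particles, had 396 and 435 TPM in U937, against 177 and 170 in THP-1, 325 and 335 in Jurkat, and 234 and 269 in BJAB. It was 0.77 higher in U937 (limma adjusted p = 0.00368) and differed by −0.90 in THP-1 (0.00125). DKC1, dyskerin, the pseudouridine synthase of box H/ACA particles, had 279 and 297 TPM in U937, against 130 and 136 in THP-1, 192 and 160 in Jurkat, and 165 and 152 in BJAB. Its differences were 0.89 in U937 (limma adjusted p = 0.00157) and −0.59 in THP-1 (0.0191). NOLC1, a chaperone of these particles, was 0.85 higher in U937 (limma adjusted p = 0.0366), with 353 and 384 TPM, against 168 to 257 TPM over the other untreated libraries. NOP58, the partner of NOP56, did not pass in any line and ranged over 316 to 450 TPM.

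Of the nucleolar RNA-binding and chaperone proteins, 2 of 5 were higher in U937 and lower in THP-1, and 1 was lower in BJAB. LYAR, a nucleolar zinc finger protein, had 251 and 275 TPM in U937, against 93.4 and 94.2 in THP-1, 192 and 222 in Jurkat, and 166 and 163 in BJAB. The difference was 0.83 in U937 (SE 0.20, limma adjusted p = 0.00658) and −1.14 in THP-1 (SE 0.20, limma adjusted p = 0.000846). GNL3, nucleostemin, a GTP-binding protein, had 469 and 540 TPM in U937, against 265 and 292 in THP-1, 301 and 277 in Jurkat, and 547 and 413 in BJAB. U937 and BJAB overlapped, and the differences were 0.58 in U937 (limma adjusted p = 0.0367) and −0.56 in THP-1 (0.0443). Over 20 alternatives the adjusted p of GNL3 ran up to 0.256 in U937, where 10 called it, and up to 0.258 in THP-1, where 8 did. NCL had 654 and 718 TPM in BJAB, against 1214 and 1320 in Jurkat, 1288 and 1238 in U937, and 1128 and 1115 in THP-1. BJAB lay below every other library, by −0.82 (SE 0.20, limma adjusted p = 0.00676). NPM1, at 1926 to 2333 TPM, and the RNA helicase DDX21, at 102 to 157 TPM, did not pass in any line. NPM1 has close copies in the genome, so that a count from uniquely aligned reads may miss part of it.

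All 3 RNA polymerase I subunits had their highest mean in U937, and 1 passed the test. POLR1C, shared with RNA polymerase III, had 272 and 314 TPM in U937, against 204 and 196 in THP-1, 139 and 129 in Jurkat, and 203 and 129 in BJAB, a difference of 0.84 (SE 0.27, limma adjusted p = 0.0320). POLR1B, a core subunit of the enzyme, had 87.2 and 94.0 TPM in U937, against 39.7 and 44.7 in THP-1, 55.8 and 44.0 in Jurkat, and 29.2 and 29.9 in BJAB. The U937 libraries did not overlap any other, but POLR1B did not pass over all 16 libraries. POLR1A, the largest subunit, was within 8.63 to 14.2 TPM in all untreated libraries.

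Among the 15 small-subunit assembly factors, HEATR1 passed in U937, NOP14 and WDR43 in THP-1, and WDR43 in BJAB. HEATR1, which joins the earliest precursor, had 34.4 and 32.6 TPM in U937, against 16.4 and 15.7 in THP-1, 18.8 and 21.7 in Jurkat, and 22.9 and 22.3 in BJAB. It was 0.75 higher in U937 (limma adjusted p = 0.0236). NOP14, part of the small-subunit processome, had 16.1 and 24.1 TPM in THP-1, against 50.8 and 49.0 in BJAB, 29.5 and 37.5 in Jurkat, and 44.4 and 36.8 in U937. It differed by −1.01 in THP-1 (limma adjusted p = 0.0352). WDR43, another early factor of the processome, had 240 and 218 TPM in BJAB, against 165 and 134 in Jurkat, 217 and 227 in U937, and 140 and 147 in THP-1. BJAB and U937 overlapped for WDR43, which differed by 0.44 in BJAB (limma adjusted p = 0.0460) and by −0.45 in THP-1 (0.0493). Over 20 alternatives the adjusted p of WDR43 ran up to 0.271 in BJAB, where 11 called it, and up to 0.304 in THP-1, where 8 did, and that of NOP14 in THP-1 up to 0.311, where 12 did. The role's median difference was 0.43 in U937 and −0.45 in THP-1.

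Of the 11 large-subunit assembly factors, RRP1B and MRTO4 passed in U937, RRP1B in THP-1, and RRS1, NOP16 and MRTO4 in Jurkat. RRP1B had 134 and 138 TPM in U937, against 34.8 and 33.6 in THP-1, 80.3 and 79.3 in Jurkat, and 78.8 and 97.2 in BJAB. U937 was above and THP-1 below all other libraries. The difference was 1.12 in U937 (SE 0.32, limma adjusted p = 0.0181) and −1.50 in THP-1 (SE 0.32, limma adjusted p = 0.00340). RRS1 had 46.5 and 48.9 TPM in Jurkat, against 85.6 and 128 in BJAB, 147 and 137 in U937, and 127 and 125 in THP-1. It differed by −1.35 in Jurkat (SE 0.35, limma adjusted p = 0.00945). NOP16, a nucleolar large-subunit factor, had 215 and 199 TPM in Jurkat, against 407 and 312 in BJAB, 402 and 439 in U937, and 439 and 428 in THP-1, a difference of −0.96 (limma adjusted p = 0.0176). MRTO4, which holds the place of the ribosomal stalk, had 108 and 107 TPM in Jurkat and 194 and 221 TPM in U937, and it differed by −0.63 in Jurkat (limma adjusted p = 0.00956) and by 0.63 in U937 (0.0101). BOP1, PES1 and WDR12, which form the PeBoW complex of the large subunit, passed in no line. PES1 had 61.1 and 102 TPM in BJAB, 60.4 and 53.7 in THP-1, 62.0 and 66.6 in U937, and 47.2 and 47.1 in Jurkat.

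The estimates at baseline do not use the stimulated libraries, but the spread behind them does. Without the 2 libraries that stood apart, 29 of 39 genes were higher and 2 lower in U937, against 25.6% and 31.9% of all tested genes. In THP-1, 3 were higher and 21 lower, against 26.2% and 29.5%. In Jurkat, 5 were higher and 8 lower, against 34.8% and 24.0%, and in BJAB 8 were higher and 10 lower, against 23.9% and 35.6%. The 8 untreated libraries on their own gave 30 higher and 1 lower in U937, against 26.8% and 33.6% of all tested genes, and 3 higher and 21 lower in THP-1, against 27.3% and 31.4%. Of the genes that these fits added, WDR75, a small-subunit factor with 240 and 251 TPM in U937, against 92.5 to 145 TPM in the other untreated libraries, is an example chosen after its values were seen.

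Other genes of the pathway were counted in lists that hold none of the 39, beside the shares of all tested genes given above (15.1% higher and 20.8% lower in U937, 17.6% and 17.3% in THP-1). Of 39 other small-subunit factors, 9 were higher and 1 lower in U937, and 2 were higher and 10 lower in THP-1. The largest positive differences in U937 were UTP14A (132 and 137 TPM in U937, against 52.8 to 70.5 TPM elsewhere, a difference of 1.13, limma adjusted p = 0.000276), PDCD11 (1.06, 0.0392) and IMP4 (0.91, 0.00119). Of 39 other large-subunit factors, 7 were higher and 1 lower in U937, led by NIFK (1.22, limma adjusted p = 0.000102), and 2 were higher and 0 lower in THP-1. Of 23 other snoRNP and modification factors, 3 were higher and 2 lower in U937, and 2 each way in THP-1. Of 17 other RNA polymerase I genes, 2 were higher and 2 lower in U937. Of 77 tested cytosolic ribosomal protein genes, 6 were higher and 4 lower in U937, with a median of −0.03, and 3 were higher and 6 lower in THP-1, with a median of −0.07. In U937 these counts became, without the 2 libraries that stood apart, 15 higher and 4 lower for the other small-subunit factors, 13 and 5 for the other large-subunit factors, 6 and 3 for the snoRNP and modification factors, 4 and 4 for the RNA polymerase I genes, and 13 and 12 for the ribosomal proteins, beside 25.6% and 31.9% of all tested genes. In THP-1 they became 6 and 19, 5 and 11, 3 and 12, 3 and 7, and 8 and 9 in the same order, beside 26.2% and 29.5%, so that the large-subunit and snoRNP lists, with no excess of lower genes over all libraries, had more lower than higher ones.

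MYC had 568 and 565 TPM in U937, against 197 and 164 in THP-1, 377 and 415 in Jurkat, and 218 and 227 in BJAB, so that U937 was above every other untreated library. The difference in U937 was 1.17 (SE 0.51) and did not pass over all 16 libraries (limma adjusted p = 0.101), while without the 2 libraries that stood apart its adjusted p was 2.41e-06. In THP-1 it was −1.03 (limma adjusted p = 0.154, and 5.39e-06 without the 2 libraries). MYCL, of the same family, was higher in THP-1 (3.08, limma adjusted p = 1.13e-07), at 11.8 and 14.2 TPM, against 0 to 1.62 TPM in the other untreated libraries. MYCN was listed at 0 in the untreated libraries of THP-1, U937 and BJAB and had 1.37 and 1.60 TPM in Jurkat.

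The E-box CACGTG, a sequence that MYC with its partner MAX can bind, was searched in the window from 250 bases before to 50 bases after each gene's start, in RefSeq promoters of build GRCh38.p14. Its letters read the same on both strands. A promoter was given for 33 of the 39 genes, and 16 of them (48.5%) held the motif, against 12.5% of 10608 tested genes and 8.77% of all 27305 genes with a promoter. By role, the motif was in 1 of 3 snoRNP genes, 3 of 5 nucleolar RNA-binding genes, 0 of 3 RNA polymerase I subunits, 8 of 14 small-subunit factors and 4 of 8 large-subunit factors. The windows of 30 bases below are those of the genes that carry the motif and passed at least 1 test, printed 5′ to 3′ on the gene's strand with the E-box in capitals:
FBL: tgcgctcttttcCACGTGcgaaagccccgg
GNL3: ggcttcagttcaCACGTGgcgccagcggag
LYAR: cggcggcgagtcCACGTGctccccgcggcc
MRTO4: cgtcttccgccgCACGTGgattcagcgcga
NOP14: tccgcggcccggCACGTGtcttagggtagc
WDR43: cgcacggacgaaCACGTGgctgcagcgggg
They lie at chr19:39846356-39846385 (FBL, minus strand), chr3:52686026-52686055 (GNL3, plus), chr4:4290068-4290097 (LYAR, minus), chr1:19251807-19251836 (MRTO4, plus), chr4:2963374-2963403 (NOP14, minus) and chr2:28894658-28894687 (WDR43, plus). In 5 of these the E-box began 4 to 16 bases after the annotated start, and in LYAR it began at base −64. The 16 genes with the motif and the 17 without had median differences of 0.52 and 0.45 in U937 and of −0.56 and −0.21 in THP-1. A match is a description of the letters and was not tested as a binding site.

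**Figure D3:**
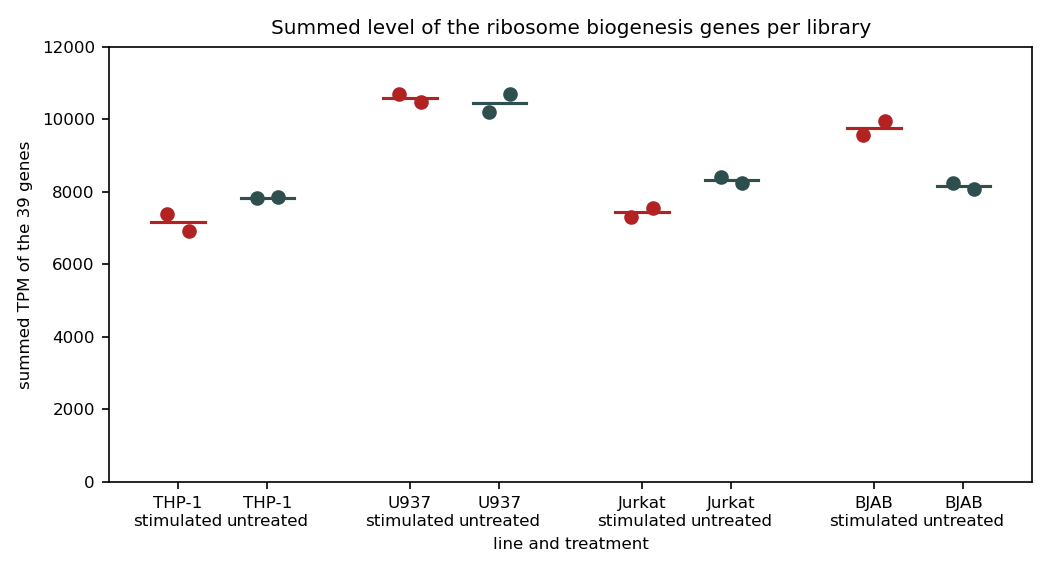
Summed TPM of the 39 genes per library (points) and the mean of the 2 libraries (lines) for each line, stimulated left of untreated. The stimulated libraries lie below the untreated ones in THP-1 and Jurkat, overlap with them in U937, and lie above them in BJAB.

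The summed TPM of the 39 genes was lower in the stimulated libraries of THP-1 and Jurkat and higher in those of BJAB, and a single gene of the 39 passed the test in a single line. In THP-1 the summed TPM was 7397 and 6921 after LPS, against 7839 and 7848 untreated. In U937 it was 10705 and 10491 after LPS, against 10215 and 10695 untreated. In Jurkat it was 7316 and 7553 after anti-CD3 and PMA, against 8417 and 8240 untreated. In BJAB it was 9572 and 9957 after anti-IgM and anti-CD40, against 8257 and 8085 untreated, although over all libraries 17 of the 39 genes had a positive change and 22 a negative one. The groups did not overlap in THP-1, Jurkat and BJAB, and overlapped in U937. The first libraries of stimulated BJAB and LPS-treated U937 reach their sums with other members than their partners do: NOP58 had 1105 TPM in the first stimulated BJAB library and 566 in the second, and EBNA1BP2 had 941 TPM in the first LPS library of U937 and 513 in the second.

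Over all 16 libraries, limma called 1 of the 39 genes in any of the 4 responses, WDR43 in BJAB. The share of all tested genes called was 0.167% in THP-1, 0.0278% in U937 and 4.87% in Jurkat, and in BJAB 1.63% were higher and 4.76% lower. At an unadjusted p under 0.05, 0 of the 39 genes differed in THP-1, 6 in U937, 2 in Jurkat and 12 in BJAB, beside 3.63%, 15.1%, 13.1% and 24.2% of all tested genes. The BJAB split over all genes, 235 higher and 686 lower, moved with the scaling, to 471 and 716 with median-of-ratios scaling and to 515 and 495 with quantile normalization. The median change of the 39 genes was −0.20 in THP-1, −0.35 in U937, −0.11 in Jurkat and −0.11 in BJAB, beside −0.06, −0.25, −0.03 and −0.14 over all tested genes; median-of-ratios scaling, which brings the median of all genes to 0, turned the median of the 39 to 0.13 in U937 and 0.22 in BJAB. Per library, the median of the 39 was −0.53 and 0.00 in U937 and −0.45 and 0.36 in BJAB for the first and the second stimulated library, while it was −0.10 and −0.24 in THP-1 and −0.12 and −0.09 in Jurkat.

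**Figure D4:**
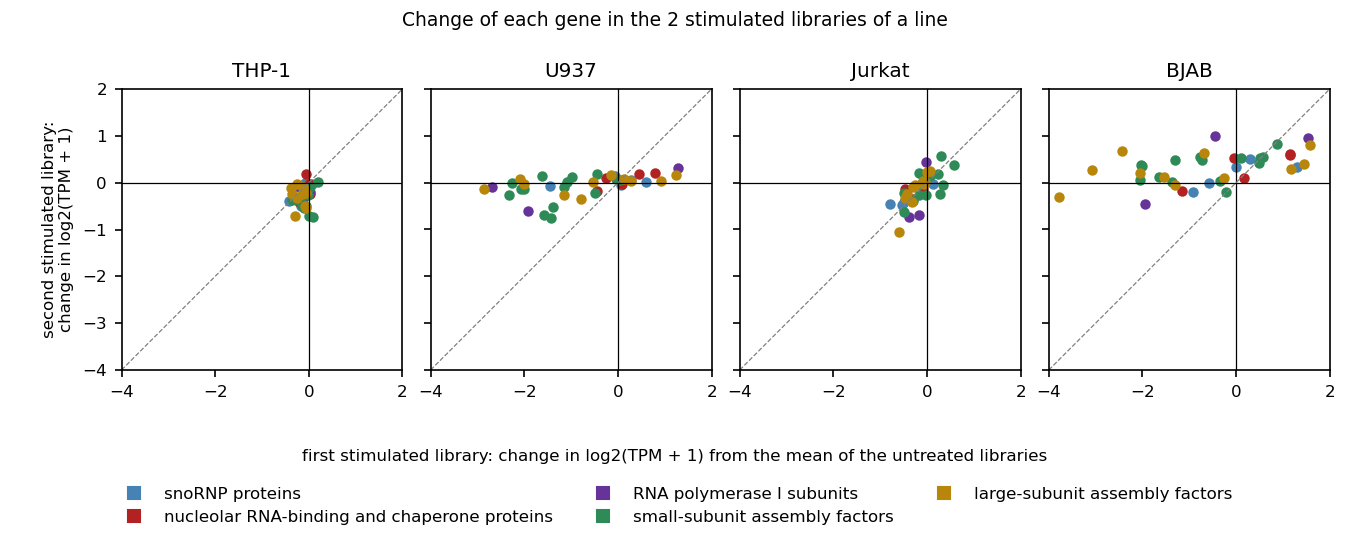
Change of each of the 39 genes in log2(TPM + 1) from the mean of the untreated libraries, in the first (horizontal) and the second (vertical) stimulated library of each line; points on the dashed line changed alike in both. THP-1 and Jurkat points lie close to the line, while in U937 and BJAB the first library spreads over −2.86 to 1.27 and −3.78 to 1.58.

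In stimulated BJAB, WDR43 rose. It had 418 and 408 TPM after anti-IgM and anti-CD40, against 240 and 218 TPM untreated, with no overlap. The change was 0.85 (SE 0.20, limma adjusted p = 0.0270), and 0.83 (0.0164) without the 2 libraries that stood apart. WDR43 did not pass with the 4 BJAB libraries and their spread alone (limma adjusted p = 0.254), or when any of 3 of them was left out (0.0946 and 0.189 without the first and the second untreated library, 0.0813 without the first stimulated library). Over 16 alternatives its adjusted p ran from 0.0132 to 0.254, and 10 of them called it. The 10 B lineage markers summed to 2291 to 4749 TPM in stimulated BJAB, against 6774 to 7258 TPM untreated, and their part in the responses of this line was not tested.

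Without the 2 libraries more members passed in BJAB: 9 of 39 were higher and 0 lower, against 3.37% and 5.85% of all tested genes, and 32 of 39 had a positive change with a median of 0.36 beside −0.04 over all genes. POLR1C had 471 and 316 TPM in stimulated BJAB, against 203 and 129 TPM untreated, a change of 1.24 (limma adjusted p = 0.0502), and 0.96 (0.0449) without the 2 libraries. NOP16 had 1066 and 626 TPM in stimulated BJAB, against 407 and 312 TPM untreated, a change of 1.19 (limma adjusted p = 0.0615), and 0.81 (0.0278) without them. Both genes were higher in each stimulated library than in each untreated one, and the adjusted p of POLR1C ran from 0.0134 to 0.421 over its 16 alternatives. LYAR had 366 and 253 TPM in stimulated BJAB, against 166 and 163 TPM untreated, and DDX21 had 260 and 176 TPM, against 128 and 107 TPM. Their changes were 0.88 and 0.86 (limma adjusted p = 0.0565 and 0.0538), and 0.62 and 0.59 (0.0264 and 0.0471) without the 2 libraries.

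All BJAB calls without the 2 libraries rest on the second stimulated library, the only stimulated BJAB library in that fit. The first stimulated library went the other way, with 14 members above and 25 below the untreated mean. Its median change was −0.45, against 0.36 in the second. Which of these libraries is nearer to the response of BJAB was not tested. For 4 of the called genes the 2 stimulated BJAB libraries lay on opposite sides of the untreated ones. POLR1B had 21.4 and 59.98 TPM in stimulated BJAB, against 29.2 and 29.9 TPM untreated. GRWD1, a histone-binding large-subunit factor, had 19.2 and 173 TPM, against 109 and 108 TPM untreated. WDR74, another large-subunit factor, had 85.5 and 217 TPM, against 141 and 137 TPM, and NOB1 had 86.8 and 217 TPM, against 142 and 155 TPM. The changes over all libraries were 0.27, −0.88, −0.03 and −0.11 for these 4 genes, and 1.00, 0.67, 0.64 and 0.55 without the 2 libraries (limma adjusted p = 0.0128, 0.0400, 0.0337 and 0.0306).

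The largest negative estimates in BJAB came from the first stimulated library. BOP1 had 8.45 and 103 TPM in stimulated BJAB, against 171 and 96.8 TPM untreated, and PES1 had 8.48 and 95.2 TPM, against 61.1 and 102 TPM. BOP1 changed by −2.05 (limma adjusted p = 0.144) and PES1 by −1.40 (0.399) over all libraries, and by −0.31 (0.614) and 0.27 (0.630) without the 2 libraries. POLR1A had 1.77 and 6.90 TPM in stimulated BJAB, against 8.63 and 10.99 TPM untreated, and did not pass (−1.20, limma adjusted p = 0.164). FBL had 170 and 283 TPM, against 301 and 347 TPM, and NCL 306 and 602 TPM, against 654 and 718 TPM; both were lower in each stimulated library, and neither passed (0.160 and 0.133). DKC1 had 196 and 227 TPM, against 165 and 152 TPM (limma adjusted p = 0.255), and NPM1 2408 and 2273 TPM, against 2092 and 2180 TPM (0.514).

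In Jurkat, 0 of the 39 genes passed over all 16 libraries. Without the 2 libraries, none of which is a Jurkat library, 7 were lower and 0 higher, against 6.78% and 6.71% of all tested genes. RRP1B had 52.6 and 37.8 TPM in stimulated Jurkat, against 80.3 and 79.3 TPM untreated, a change of −0.83 (limma adjusted p = 0.425, and 0.00772 without the 2 libraries). DKC1 had 101 and 127 TPM in stimulated Jurkat, against 192 and 160 TPM untreated, a change of −0.62 (limma adjusted p = 0.159, and 0.0215 without). BYSL, a small-subunit factor known as bystin, had 115 and 106 TPM, against 165 and 162 TPM, and POLR1B had 37.8 and 29.2 TPM, against 55.8 and 44.0 TPM. Both changed by −0.56 (limma adjusted p = 0.903 and 0.981, and 0.00990 and 0.0470 without). These 4 genes were lower in each stimulated Jurkat library than in each untreated one. Their adjusted p ran from 0.00772 (RRP1B), 0.0100 (DKC1), 0.00990 (BYSL) and 0.0470 (POLR1B) upwards over 16 alternatives each, of which 2, 3, 1 and 1 called the gene.

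The other genes that passed in Jurkat without the 2 libraries were NOP56 (228 and 238 TPM in stimulated Jurkat, against 325 and 335 TPM untreated, a change of −0.50), NOLC1 (180 and 189 TPM, against 257 and 247 TPM, −0.45) and NCL (1035 and 987 TPM, against 1214 and 1320 TPM, −0.32). Their limma adjusted p-values without the 2 libraries were 0.00703, 0.0469 and 0.0259, and over all libraries 0.297, 0.809 and 0.803. Of the 5 snoRNP proteins, 3 are among these 7. FBL, in the same particles, had 392 and 349 TPM in stimulated Jurkat, against 367 and 348 TPM untreated (0.05, limma adjusted p = 1.0). NPM1 had 1850 and 1804 TPM, against 2010 and 1926 TPM (−0.11, 0.935), and PES1 had 45.6 and 47.6 TPM, against 47.2 and 47.1 TPM (−0.02, 1.0).

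The responses of Jurkat and BJAB were compared directly. Of the 39 genes 1 was called, WDR43, at −1.20 for Jurkat minus BJAB (SE 0.28, limma adjusted p = 0.0271), while 3.76% of all tested genes had a difference above 0 and 1.48% below 0 past the threshold (541 and 213 genes, and 483 and 327 with quantile normalization). Over 20 alternatives its adjusted p ran from 0.00991 to 0.138, and 13 of them called it. WDR43 had 105 and 128 TPM in stimulated Jurkat, against 165 and 134 TPM in untreated Jurkat, and so lay on the other side of its control from BJAB. Without the 2 libraries, 8 of 39 had a negative difference past the threshold and 0 a positive one, against 3.16% of all genes below 0 and 5.6% above 0. They were POLR1B (−1.56), NOP16 (−1.21), WDR43 (−1.18), DKC1 (−1.14), LYAR (−0.97), GRWD1 (−0.86), WDR74 (−0.79) and NOLC1 (−0.78). The median difference of the 39 genes was −0.15 over all libraries and −0.47 without the 2, beside 0.14 and 0.03 over all tested genes. Over all libraries the largest differences that missed the threshold were BOP1 at 2.16 (limma adjusted p = 0.369), NOP16 at −1.59 (0.0925), PES1 at 1.38 (0.651) and LYAR at −1.24 (0.0681), and BOP1 and PES1 stood at 0.42 and −0.29 without the 2 libraries.

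In THP-1, 0 of the 39 genes passed after LPS, with or without the 2 libraries. Of the 39, 36 had a negative change, and the largest was −0.51. For 24 of 39 genes both LPS libraries lay below both untreated ones, and for 0 above, where 22.5% and 12.2% of all tested genes did so. In the other lines, the members below and above without overlap were 15 and 5 in U937 (background 30.7% and 11.2%), 18 and 5 in Jurkat (28.7% and 21.0%), and 4 and 13 in BJAB (32.9% and 14.2%). GRWD1 had 119 and 88.4 TPM in LPS-treated THP-1, against 144 and 148 TPM untreated, and NOP56 had 129 and 133 TPM, against 177 and 170 TPM. NAT10, the acetyltransferase of 18S rRNA, had 56.7 and 56.4 TPM, against 71.7 and 74.2 TPM, and PNO1, a small-subunit factor, had 52.5 and 31.7 TPM, against 55.4 and 49.5 TPM. Their changes were −0.51, −0.40, −0.36 and −0.35, each with a limma adjusted p of 1.0. Without the 2 libraries these p-values were 0.287, 0.192, 0.299 and 0.637.

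FBL had 185 and 194 TPM in LPS-treated THP-1, against 189 and 200 TPM untreated (−0.04), NPM1 had 2309 and 2271 TPM, against 2296 and 2333 TPM (−0.02), and NCL had 1052 and 1042 TPM, against 1128 and 1115 TPM (−0.10). These 3 abundant members thus moved by 0.10 or less. DKC1 had 119 and 93.5 TPM, against 130 and 136 TPM (−0.33), POLR1B had 39.4 and 33.8 TPM, against 39.7 and 44.7 TPM (−0.20), and PES1 had 43.5 and 52.9 TPM, against 60.4 and 53.7 TPM (−0.24).

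In U937, 0 of the 39 genes passed after LPS. The members with the largest estimates were far below the untreated libraries in the first LPS library, and in the second also below both but nearer to them. PES1 had 8.01 and 58.1 TPM in LPS-treated U937, against 62.0 and 66.6 TPM untreated, and POLR1B had 13.3 and 84.9 TPM, against 87.2 and 94.0 TPM. RRP12, a small-subunit export factor, had 15.2 and 66.5 TPM, against 76.9 and 82.5 TPM, and POLR1A had 2.61 and 8.00 TPM, against 14.2 and 11.2 TPM. They changed by −1.50, −1.39, −1.29 and −1.26 over all libraries (limma adjusted p = 0.390, 0.334, 0.334 and 0.329), and by −0.14, −0.09, −0.26 and −0.60 without the 2 libraries (1.0, 1.0, 0.980 and 0.773). The median change of the 39 genes was then 0.00.

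Several abundant members had close values in all 4 U937 libraries. FBL had 493 and 457 TPM after LPS, against 465 and 483 TPM untreated (0.00), DKC1 had 275 and 315 TPM, against 279 and 297 TPM (0.03), and NPM1 had 2192 and 2027 TPM, against 2112 and 2022 TPM (0.03). NCL had 922 and 1123 TPM, against 1288 and 1238 TPM (−0.31, limma adjusted p = 0.492). The LPS responses of THP-1 and U937, at different doses and with dCas9-KRAB in THP-1 alone, did not differ past the threshold for any of the 39 genes, and 0.0486% of all tested genes did. The largest differences, THP-1 minus U937, were PES1 at 1.26, RRP12 at 1.21, NOP14 at 1.19 and POLR1B at 1.18 (limma adjusted p = 0.766, 0.746, 0.746 and 0.746), and −0.10, 0.18, 0.85 and −0.11 without the 2 libraries.

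The other genes of the pathway were counted after stimulation in the same way. Of all tested genes, 1.63% rose and 4.76% fell in BJAB, and 3.02% rose and 1.85% fell in Jurkat. In BJAB, 4 of 39 other large-subunit factors rose. Among them were ZNF622 (454 and 336 TPM in stimulated BJAB, against 158 and 154 TPM untreated, a change of 1.32, limma adjusted p = 0.00491), NIP7 (1.01, 0.0164) and SBDS (0.99, 0.00676). Of 39 other small-subunit factors 1 rose in BJAB, LTV1 (0.88, limma adjusted p = 0.0246), and 1 fell in Jurkat, TSR3 (−1.40, 0.00992), which had 4.97 and 5.72 TPM in stimulated Jurkat, against 13.4 and 18.5 TPM untreated. Of the 23 other snoRNP and modification factors and the 17 other RNA polymerase I genes, limma called 0 in any line. In BJAB without the 2 libraries that stood apart, 4 large-subunit and 4 small-subunit factors rose and 0 fell, while 1 of the RNA polymerase I genes fell, beside 3.37% of all tested genes higher and 5.85% lower. In Jurkat, 2 large-subunit factors were then higher and 1 lower, 1 small-subunit factor higher and 4 lower, and 1 snoRNP factor and 2 RNA polymerase I genes lower, beside 6.71% and 6.78%. Of the 77 ribosomal protein genes 3 fell in BJAB, RPL39 (−1.02), RPLP2 (−0.98) and RPL7A (−0.69; limma adjusted p = 0.0338, 0.0447 and 0.0405), of which 0 passed without the 2 libraries (0.124, 0.128 and 0.0540). For Jurkat minus BJAB, TSR3, WDR3 and NIP7 differed by −1.55, −1.19 and −1.27 (limma adjusted p = 0.0395, 0.0451 and 0.0302).

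MYC was lower in the stimulated libraries of Jurkat and BJAB. It had 127 and 137 TPM in stimulated Jurkat, against 377 and 415 TPM untreated, and 33.6 and 119 TPM in stimulated BJAB, against 218 and 227 TPM untreated. The changes were −1.58 (limma adjusted p = 0.279, and 1.06e-05 without the 2 libraries) and −1.79 (0.115, and −0.90 with 0.00293 without them). In THP-1 MYC had 169 and 181 TPM after LPS, against 197 and 164 TPM untreated, and in U937 115 and 547 TPM after LPS, against 568 and 565 TPM untreated. MXD3 and MXD4, which bind MAX in place of MYC, fell in BJAB (−2.06 and −1.45, limma adjusted p = 0.00863 and 0.0234), and without the 2 libraries these p-values were 0.00916 and 0.0634. MYCL changed past the threshold in no line.

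**Figure D5:**
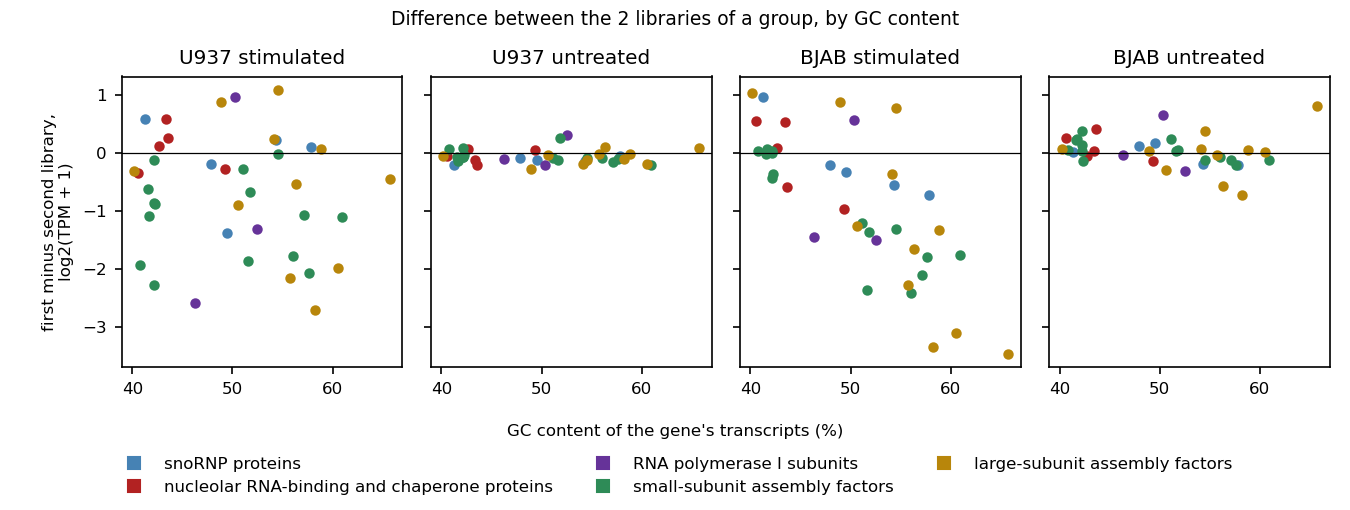
Difference between the first and the second library of a group in log2(TPM + 1), against the GC content of the gene's transcripts in percent, for the 39 genes in stimulated and untreated U937 and BJAB. Points of stimulated BJAB fall with GC content, to −3.46 for BOP1 at the high end. Members near the low end vary, with WDR12 at 1.04, NOP58 at 0.96, UTP15 at 0.04 and WDR75 at −0.43. The untreated pairs lie within −0.28 to 0.31 in U937 and run from −0.72 for PES1 to 0.81 for BOP1 in BJAB.

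In the pairs that stood apart, the difference between the libraries varied with the gene. In stimulated BJAB the log2 difference between the libraries ran from −3.46 for BOP1 to 1.04 for WDR12, and its Pearson r with GC content was −0.76 over the 39 genes and −0.45 over 12829 genes. In LPS-treated U937 it ran from −2.71 for PES1 to 1.09 for NOP16, with an r of −0.14 with GC content and −0.39 with transcript length over the 39 genes, and 0.01 and −0.18 over the 12829. These correlations are across genes of the same library pair, which are not independent. The 39 genes had a median GC content of 50.6%, against 50.1% for all tested genes, and a median length of 2029 bases, against 1780. The part of GC content and length in the responses was not tested.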

How the data were processed

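The deposited files, 1 per library, hold TPM that the authors made from uniquely aligned reads; per the submitters' processing notes, TopHat2 and the build hg19 were used, while the counting program and all versions are unstated (not given in the sources used here). Each library sums to 1000000 TPM. Since a gene's TPM in a library is a whole multiple of what 1 read is worth, whole reads were recovered for 17860 of 19092 detected genes (93.5%) at a tolerance of 0.001, and gave the depth; PCR reads are not independent molecules.

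The 14398 genes that reached 1 TPM in 2 or more libraries entered a linear model of log2(TPM + 1) (limma 3.58.1, R 4.3.3) fitted to the 8 group means, the spread allowed to follow the level (residual degrees of freedom 8, prior 3.18). This scale understates the change of low genes. The p-values are two-sided and were adjusted by Benjamini-Hochberg over these genes. The script was tested on simulated data. The 10 comparisons were the 4 responses, 2 differences between responses and 4 untreated lines against the mean of the rest. The rule for genes given with full values took the 8 largest calls each way per response or difference, or, where fewer than 4 passed, the 4 largest changes, the 3 largest calls each way per untreated line, and FBL, NCL, NPM1, DKC1, POLR1B and PES1 throughout; some further called genes are added. The genes, lists and alternatives were chosen with earlier results of these data known, including the 2 libraries that stood apart. Promoters are RefSeq's (GRCh38.p14); overlapping genes, GC content and length were read from GENCODE v29, whose build is not that of the files, so no gene coordinates are given other than those of the E-box windows, which are in GRCh38.p14 as RefSeq gives them. Same-numbered libraries did not deviate together (r = 0.01, −0.04, 0.02 and 0.14 in THP-1, U937, Jurkat and BJAB), so the numbers were not used as pairs.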

Additional observations from a re-analysis of the deposited data

Results flagged for a closer look

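The difference in the response of WDR43 between lines, Jurkat minus BJAB, was −1.2 on the log2(TPM + 1) scale and passed a direct test of the difference (limma adjusted p = 0.0271). WDR43 was higher in both stimulated BJAB libraries than in both untreated ones. It was lower in both stimulated Jurkat libraries than in both untreated ones. The call depended on the settings, and 13 of 20 alternatives made it. It was lost with the replicate number as a block (limma adjusted p = 0.138), with library weights (0.0622) and with the compared lines alone (0.0551). WDR43 was the only member called in this difference, while 1.48% of all tested genes were called below 0.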

How the results depend on the processing

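The counts of members called depend on whether the 2 libraries that stood apart are in the fit. Leaving them out changes the spread in every comparison. It also changes the estimates of the U937 and BJAB responses and of the differences that use them. Without both, 7 members were called in the Jurkat response, 9 in the BJAB response and 8 in Jurkat minus BJAB, and 24, 31, 13 and 18 at baseline in THP-1, U937, Jurkat and BJAB, beside 13.5%, 9.22%, 8.76%, 55.6%, 57.5%, 58.9% and 59.4% of all tested genes. Library weights, equal within a group, gave 3, 0, 2, 22, 27, 13 and 14 in the same order, beside 12.9%, 1.49%, 3.62%, 61.1%, 62.5%, 61.8% and 60.5% of all tested genes called either way. Quantile normalization gave 1, 4, 2, 12, 19, 5 and 4 in that order, beside 5.88%, 7.01%, 5.63%, 41.8%, 39.5%, 40.4% and 43.1%. With the libraries of the compared lines alone, 0 were called in the BJAB response and 0 in Jurkat minus BJAB, beside 0.0833% and 3.97% of all tested genes. The untreated libraries alone gave 24, 31, 18 and 20 at baseline in THP-1, U937, Jurkat and BJAB, beside 58.7%, 60.4%, 61.9% and 62.1%. The BJAB response had 3 members at a pseudocount of 5, beside 7.64% of all tested genes. It had 2 each with a TPM minimum of 5, median-of-ratios scaling, no trend, or voom on the recovered reads, beside 6.49%, 8.24%, 6.47% and 8.07%. With the replicate number as a block, 0 were called in the BJAB response, 0 in Jurkat minus BJAB, 4 in THP-1 and 1 in BJAB at baseline, beside 3.76%, 3.5%, 31.7% and 36.7%. No label says what the numbers mark. Leaving out 1 library at a time gave 0 to 17 members in the U937 response, 0 to 26 in the BJAB response, 0 to 13 in Jurkat minus BJAB, 0 to 7 in THP-1 minus U937, and at baseline 4 to 6 in THP-1, 1 to 9 in U937, 0 to 3 in Jurkat and 0 to 2 in BJAB. The 17 and 26 came from leaving out the second LPS library of U937 (4 higher and 13 lower, beside 5.1% and 29.6% of all tested genes) and the second stimulated library of BJAB (8 higher and 18 lower, beside 6.45% and 22.6%), which leaves the library that stands apart alone in its group. The same second libraries, when left out, gave the largest member counts in THP-1 minus U937 and in Jurkat minus BJAB. The share of all tested genes called in these differences rose there too. At baseline, leaving out 1 library lowered the share of all tested genes called in every line. No baseline count of members was then above that over all libraries. The causes of the other shifts were not tested. For single named genes, 770 values kept their side of the threshold, 106 lost it, 27 gained it, 9 uncalled values changed sign and 0 called values reversed.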
